A study of Mus musculus with 47 samples.

Results

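The livers of antibiotic-treated *Pxr*-/- male mice were compared with those of antibiotic-treated *Pxr*-/- female mice, 6 males and 6 females, which are 12 of the 47 livers of the study. The 12 were chosen by their sample labels alone (sex, genotype and treatment), and 20958 autosomal genes were compared out of 21873 genes tested. The whole study crossed sex, *Pxr* genotype and treatment, with 1 array per mouse and 6 mice in each of its 8 groups except untreated *Pxr*-/- males, of which 5 were measured. All 12 mice were *Pxr*-/- on a C57BL/6J background, bred as littermates of *Pxr*+/+ mice, and carried the deletion in the whole body. They were 6 months old, had for 2 weeks drunk water holding 0.5 g/L of vancomycin and 1 g/L each of ampicillin and neomycin, and were killed 6 h after lights on (ZT6). The 3 other settings in which males and females could be compared were untreated *Pxr*+/+ mice (Cont), untreated *Pxr*-/- mice and antibiotic-treated (ATB) *Pxr*+/+ mice. Mice of a group shared cages, but which mice did so is not given in the sources used here.

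The mouse liver is one of the most sexually dimorphic organs. Growth hormone reaches it in pulses in males and almost continuously in females, and the resulting pattern of STAT5 activity, with the repressors BCL6 in males and CUX2 in females, sets the level of many cytochrome P450s (CYPs), sulfotransferases and secreted proteins. PXR, encoded by Nr1i2, is the nuclear receptor that induces Cyp3a11 and other detoxification genes when it binds foreign compounds or certain bile acids, and some of its ligands are made by gut bacteria. The comparison asked which sex differences were present in livers without PXR and with a depleted gut microbiota, and whether they differed in size from those of the other settings.

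Signals are given as the log2 of the median spot intensity. Their main scaling was CrossNorm, a form of quantile normalization that keeps differences between whole groups, and quantile normalization of all 47 arrays was run beside it. A gene was called at a Benjamini-Hochberg adjusted p of 0.05 or less with a fold above 1.2 (limma). The 75th percentile of the unscaled probe signals lay between 321 and 371.5 in males and between 371 and 448 in females, whereas the spot background lay between 15 and 21 in both sexes. Between 31067 and 33599 of 56605 probes were well above background on each of the 12 arrays, and no autosomal gene was saturated. Each of the 6 slides held 1 male and 1 female of this comparison, so wash batch and slide were balanced between the sexes.

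The sex labels were borne out by the sex-chromosome genes, which enter no count. Xist, the RNA that silences an X chromosome in females, lay between 7.80 and 8.31 in the females and between 4.12 and 4.82 in the males, where it was well above background in 0 of 6 mice. The Y-linked genes Ddx3y, Eif2s3y and Uty lay at 6.56 or more in every male and at 4.59 or less in every female. The brightest probe for Kdm5d, another Y-linked gene, did not separate the sexes (log2 difference -0.01, adjusted p = 0.914), although 3 other probes for it were 3.33, 1.34 and 1.42 higher in males. The Nr1i2 probe gave a signal of 10.36 to 11.81 in these 12 *Pxr*-/- livers and cannot check the genotype, since its position relative to the deletion is not given. Its log2 difference, male less female, was -0.40 (SE 0.18, adjusted p = 0.0778).

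A large set of genes separated the sexes in both directions. After CrossNorm, 521 autosomal genes (2.49% of 20958) were higher in males and 4830 (23%) were higher in females. After quantile normalization the counts were 1420 (6.78%) and 1298 (6.19%), so that the share of calls that were higher in females went from 90.3% to 47.8% with the scaling. The median log2 difference of all autosomal genes was -0.17 after CrossNorm, -0.17 without scaling, -0.09 when arrays were scaled on 8 spike-in probes (chosen after seeing the data) and 0.01 after quantile normalization. CrossNorm was rerun here. In the CrossNorm values given by the authors the median was -0.08, with 797 genes higher in males and 2650 in females. The unscaled median was below 0 on each of the 6 slides, from -0.21 to -0.05. The mean difference of the spike-in probes on the same slides ranged from -0.25 to 0.09. Whether this shift of the whole distribution came from the livers or from the labelling cannot be told apart with these arrays.

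Both scalings called 520 genes (2.48%) higher in males and 1297 (6.19%) higher in females, and no gene was called in opposite directions. These 1817 genes (8.67%) are the ones described here as higher in a sex, and values are from CrossNorm unless stated. Among the 520, the difference exceeded 2-fold for 165 genes, 4-fold for 46 and 16-fold for 12. Among the 1297, it did so for 274, 77 and 18. Males and females did not overlap at 288 of the 520 male-higher genes and at 955 of the 1297 female-higher genes, against 10.1% of all autosomal genes (1.4% with males above and 8.69% with females above). The direction was the same on all 6 slides for 429 and 1225 of these genes, and in each of the 3 wash batches for 494 and 1288. Because these genes were called on the same arrays, these counts describe them and are no test of the calls. The same shares over all autosomal genes are not given here.

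**Figure D1:**
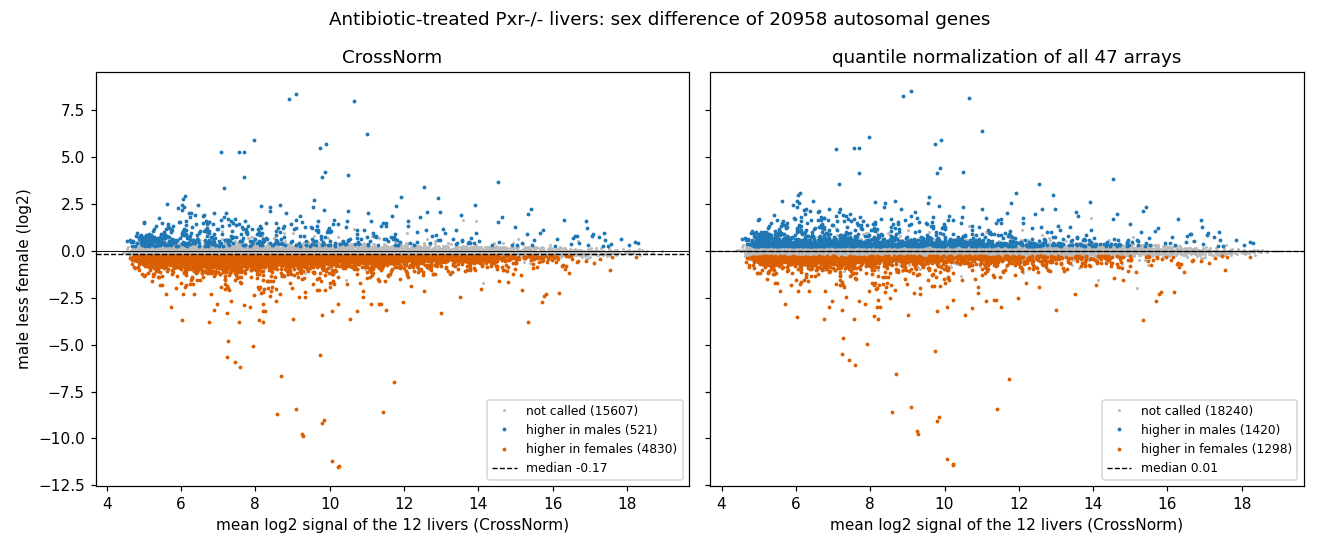
Log2 difference, male less female, of 20958 autosomal genes (vertical axis) against the mean log2 signal of the 12 livers (horizontal axis), after CrossNorm on the left and after quantile normalization on the right. Each point is a gene, colored by its call, and the dashed line is the median, which was -0.17 on the left and 0.01 on the right.

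The genes with the largest differences in favor of males were led by P450s, a steroid enzyme and a fatty acid elongase. Cyp4a12a, an arachidonic acid hydroxylase, lay at 12.59, 13.07 and 13.21 (lowest, median and highest) in males and at 4.50, 4.86 and 5.06 in females. The difference was 8.13 (SE 0.14, adjusted p = 2.06e-38), and its neighbor Cyp4a12b differed by 8.39 (SE 0.13, adjusted p = 2.02e-39). The probes were well above background in only 1 and 2 of 6 females, and the differences ran from 7.13 to 10.50 and from 7.42 to 10.58 across the alternative analyses. Hsd3b5, a male-specific steroid reductase of the liver, ranged from 14.29 to 15.31 in males (median 14.53) and from 5.87 to 7.38 in females (median 6.77), with a difference of 7.98 (SE 0.32, adjusted p = 5.46e-24). Elovl3, which elongates saturated fatty acids, ranged from 13.45 to 14.64 in males and from 6.71 to 8.70 in females, with a difference of 6.24 (SE 0.35, adjusted p = 1.39e-18). The 12 genes of each direction were chosen among those whose groups did not overlap.

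Cfd, which encodes the complement protease adipsin, showed a wider spread among males, from 8.75 to 11.87 (median 11.26), against 4.33 to 6.03 in females. Its difference was 5.90 (SE 0.55, adjusted p = 1.81e-11), and the lowest male, replicate 6, stood apart from the next at 10.86. The N-acetyltransferase genes Nat8 and Nat8f5 were higher in males by 5.50 (SE 0.16) and 5.28 (SE 0.29). Tff3, a secreted trefoil peptide, was higher by 5.29 (SE 0.37), and Slco1a1, an uptake transporter for organic anions, by 4.03 (SE 0.49, adjusted p = 2.21e-08). Moxd1, a monooxygenase-like protein of the dopamine beta-hydroxylase family, lay at 7.77, 9.59 and 12.24 in males and at 4.21, 4.46 and 4.63 in females. Its probe was well above background in 0 of 6 females, so its signal was at least 32.6-fold higher in males (adjusted p = 4.1e-12). The Cfd and Nat8f5 probes were well above background in 2 of 6 females and that of Tff3 in 4. The remaining members of the 12 were Gm4956 (5.73) and Susd4 (4.22), a complement regulator for which a second probe gave 1.00.

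The largest differences in favor of females were larger still, and most belonged to sulfotransferases and P450s. Sult2a2, a hydroxysteroid and bile acid sulfotransferase, lay at 15.29, 16.08 and 16.41 in females and at 4.11, 4.38 and 5.05 in males, where it was well above background in 0 of 6. It was at least 2590-fold higher in females (adjusted p = 1.55e-31). The probes for Sult2a1, Sult2a6 and Sult2a4 were likewise not well above background in any male and gave bounds of at least 2658-fold, 2193-fold and 805-fold. A second probe for Sult2a6 gave a log2 difference of only -4.24, so the size depends on the probe. The 60-base probes of Sult2a1 and Sult2a2 share a run of 26 bases, and those of Sult2a1 and Sult2a4 a run of 36, so these members may not be measured separately. Sult3a1, a sulfotransferase of another subfamily, was higher in females, with a log2 difference of -8.44 (SE 0.37, adjusted p = 1.34e-22) and was well above background in 1 of 6 males.

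Among the P450s, Cyp2b13 and Cyp3a44 were not well above background in any male and were at least 737-fold and 319-fold higher in females. Cyp2b9 ranged from 15.40 to 16.26 in females and from 5.75 to 8.25 in males, with a difference, male less female, of -8.61 (SE 0.31, adjusted p = 5.21e-26). Cyp2b10, an inducible P450 controlled by the receptors CAR and PXR, differed by -7.01 (SE 0.33, adjusted p = 3.05e-21), and by -4.24 with a second probe. The organic anion transporter gene Slc22a26 differed by -6.68 (SE 0.17), and an unnamed transcript, ENSMUST00000121135, by -8.998 (SE 0.28).

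**Figure D2:**
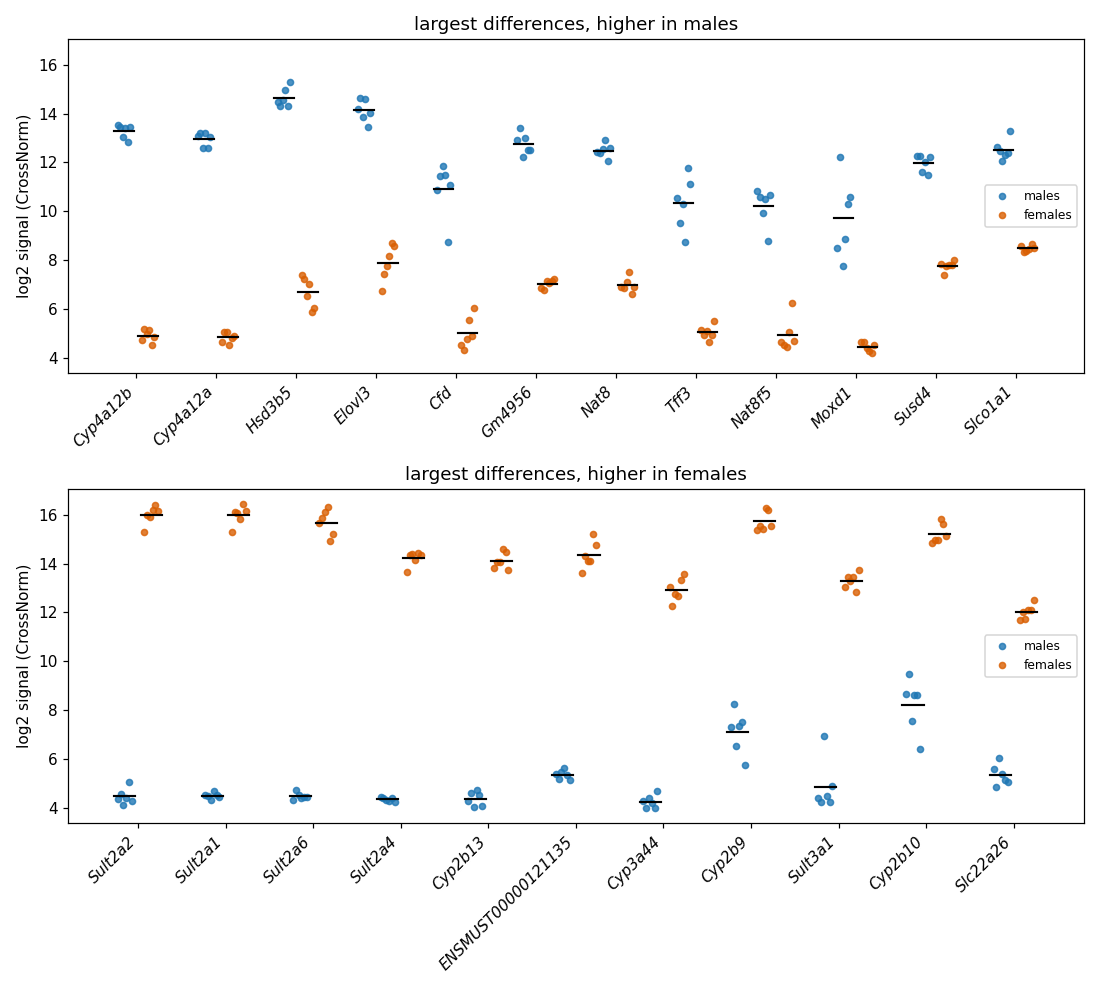
Log2 signal of each of the 6 males and 6 females for 12 of the genes with the largest differences in favor of males and 11 of those in favor of females, with a horizontal bar at each group mean. The genes were chosen among those whose males and females were separate, and Cfd and Moxd1 had the widest spread among males.

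The proximal promoters of a few of these genes held DNA motifs of the growth hormone pathway. Promoter windows of 300 bases (250 before and 50 after the start, RefSeq, GRCm38.p6) were searched on both strands for TTCNNNGAA, the STAT5 motif, and for ATCAAT, which CUX2 and HNF6 can bind. The 2 motifs were present in 8.3% and 7.54% of all 32851 promoters. They were present in 8.68% and 5.68% of the 12278 autosomal genes tested that have a promoter in that table, in 9.6% and 11.6% of the 302 male-higher genes and in 10% and 6.99% of the 816 female-higher genes. Of the 12 genes with the largest differences in favor of males, 7 have a promoter in the table, and 1 of these held the STAT5 motif and none the other. Of the 12 in favor of females, 8 have one, of which 2 held the STAT5 motif and 3 the other, so 11 of these 15 promoters held neither. The stretches printed here are chosen because they hold a motif, from these genes and from 2 Cyp3a genes described with the settings, with the motifs in capitals. A match is a description of these letters and not a binding site.
Moxd1, chr10:24223352-24223391 (+): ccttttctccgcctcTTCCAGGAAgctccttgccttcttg
Sult3a1, chr10:33857603-33857662 (+): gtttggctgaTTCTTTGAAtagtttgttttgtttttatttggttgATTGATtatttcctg
Slc22a26, chr19:7802709-7802818 (-): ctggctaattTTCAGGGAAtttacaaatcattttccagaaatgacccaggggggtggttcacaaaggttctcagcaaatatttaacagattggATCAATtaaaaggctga
Cyp3a44, chr5:145805920-145805965 (-): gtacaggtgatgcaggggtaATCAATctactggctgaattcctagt
Cyp3a41a, chr5:145720182-145720227 (-): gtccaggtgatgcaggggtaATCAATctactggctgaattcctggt
Cyp3a16, chr5:145469769-145469814 (-): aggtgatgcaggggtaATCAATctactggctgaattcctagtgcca
Sult3a1 and Slc22a26 held both motifs, 2 of the 8 on the female side against 0 of the 7 on the male side. Over the full lists the order was the other way. Both motifs were present in 1.99% of male-higher and 0.98% of female-higher genes with a promoter, against 0.521% of autosomal genes tested. The STAT5 motif of Moxd1 starts 150 bases before the transcription start, and the CUX2 and HNF6 motif of Cyp3a44 and Cyp3a41a starts 71 bases before it.

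Genes known for their sex bias in mouse liver were mostly on their known side. Of 31 male-biased genes tested, 25 were higher in males (background 2.48%) and none was higher in females, with a median difference of 1.64 (1.72 after quantile normalization). Besides those above, Cyp2d9 was higher in males by 3.41 (SE 0.11), and Cyp7b1, which hydroxylates oxysterols and steroids, by 2.84 (SE 0.18). C6, C8a and C8b, which form the terminal complement complex, were higher by 3.94, 2.07 and 1.91, and the growth factor receptor Egfr by 1.11. Serpina1e, an alpha-1 antitrypsin, was not called (0.09, adjusted p = 0.175). These lists were made from known sex bias, and with earlier results of these data known. Their counts therefore describe how far that bias was present in these 12 mice and are not a test of it.

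Of 38 female-biased genes tested, 33 were higher in females (background 6.19%), with a median difference of -3.08 (-2.92 after quantile normalization). Hao2, a peroxisomal hydroxy acid oxidase, was at least 56.3-fold higher in females and not well above background in any male, and A1bg was at least 9.63-fold higher. Vldlr, the receptor for very low density lipoprotein, differed by -3.81 (SE 0.29), and Hamp2, a hepcidin gene, by -3.79 (SE 0.39). Akr1b7 differed by -3.20, Abcd2, a peroxisomal fatty acid transporter, by -2.88, and Cyp17a1 by -1.48. Acsm2 was the 1 member that was higher in males (0.86, SE 0.17, adjusted p = 0.000146). The fatty acid transporter gene Cd36 was not called, at a median of 8.597 in males and 8.98 in females (-0.49, adjusted p = 0.158).

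Families of metabolic enzymes, transporters and secreted proteins were unequal in direction. Among sulfotransferases, 12 of 18 tested were higher in females and 1 in males (background 6.19% and 2.48%, as for each family here), and among the Cyp3 family 5 of 8 were higher in females and none in males. The major urinary proteins, pheromone carriers secreted in male urine, were the reverse, with 9 of 12 higher in males and none in females. Mup6 was higher in males by 2.24 (SE 0.22), Mup3 by 0.99 (SE 0.11) and Mup20 by 0.89 (SE 0.14), although these near-identical genes share sequence. Other probes gave 1.61 for Mup6, 1.18 and -0.25 for Mup3 and 3.48 for Mup20, so the size depends on the probe. The Cyp2 family was divided, with 8 of 46 higher in males and 17 in females, as were the Cyp4 family (3 and 5 of 14) and the carboxylesterases (6 and 3 of 17). Gstp1, a glutathione S-transferase abundant in male liver, was higher in males by 2.07 (SE 0.15), while 7 of 19 glutathione S-transferases were higher in females. Of 29 Slco and Slc22 transporters, 2 were higher in males and 9 in females.

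**Figure D3:**
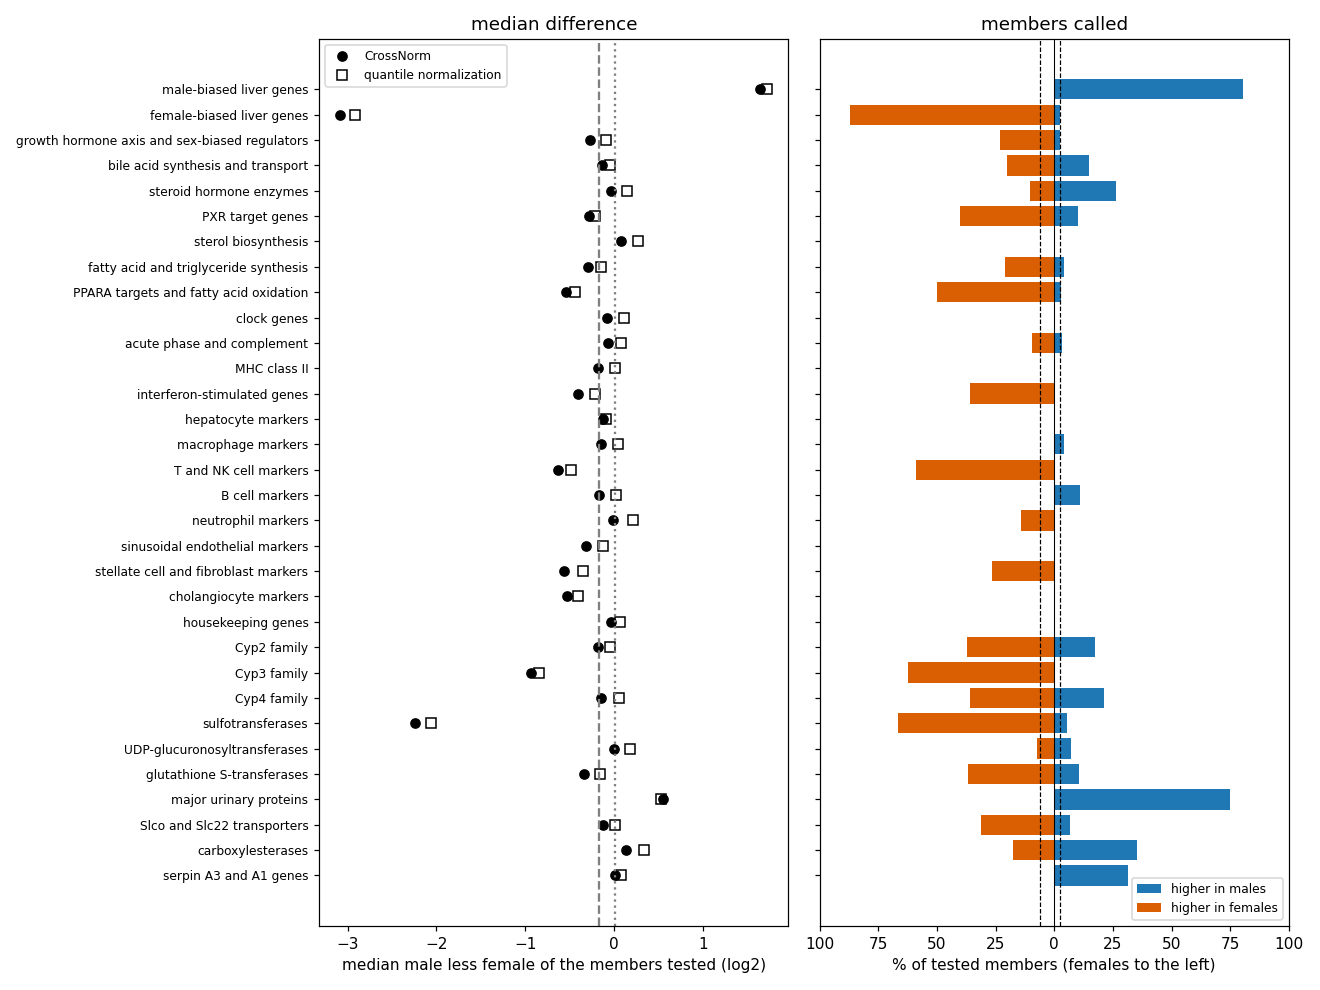
Median log2 difference, male less female, of the tested members of 32 gene lists (left, circles for CrossNorm and squares for quantile normalization), and the percentage of each list's tested members called under both scalings (right, males to the right and females to the left). Dashed and dotted lines mark the medians of all autosomal genes on the left, -0.17 and 0.01, and dashed lines their called shares on the right, 2.48% and 6.19%.

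Among the regulators of dimorphism, 1 of 39 tested was higher in males and 9 were higher in females (background 2.48% and 6.19%). Cux2, the female-specific repressor, lay at 7.66, 8.68 and 9.54 in females and at 4.66, 4.89 and 4.96 in males, in 2 of which it was well above background. Its difference was -3.77 (SE 0.29, adjusted p = 6.01e-14), and the groups did not overlap. Tox, another female-biased nuclear factor, differed by -1.95 (SE 0.22, adjusted p = 2.88e-09). Receptors for hormones followed, Prlr for prolactin with -2.81 (SE 0.20, adjusted p = 3.24e-15) and Esr1 for estrogen with -1.38 (SE 0.15, adjusted p = 1.07e-09), and Nr1i3, which encodes CAR, differed by -1.04 (SE 0.14). All 6 females were above all 6 males for these 4 genes, as for 8.69% of all autosomal genes.

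The growth hormone receptor itself and the factors that act on it gave mixed results. Ghr was not called (-0.05, adjusted p = 0.727), nor was its main endocrine product Igf1 (-0.22, adjusted p = 0.127). Stat5b, the STAT that carries the male pulse, lay at 11.57, 11.69 and 12.22 in males and at 11.97, 12.25 and 12.81 in females, with a difference of -0.55 (SE 0.14, adjusted p = 0.00384). Socs2, a feedback inhibitor induced by growth hormone, differed by -2.05 (SE 0.49, adjusted p = 0.00194), and its 6 males spread from 7.22 to 10.53 against 10.37 to 11.002 in females, so that 1 male overlapped with them. Cish, a related inhibitor, was not called (-0.81, adjusted p = 0.232). Bcl6, the male-biased repressor, had a median of 12.66 in males and 11.52 in females, but the groups overlapped and the difference was not called (0.97, SE 0.52, adjusted p = 0.154). A second Bcl6 probe gave -0.03 (adjusted p = 0.98). Igfbp1 and Igfals, which bind insulin-like growth factor or its complexes, were higher in females, with differences of -1.20 and -0.68. No member of this list was called in any test of the sex difference against the other settings.

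**Figure D4:**
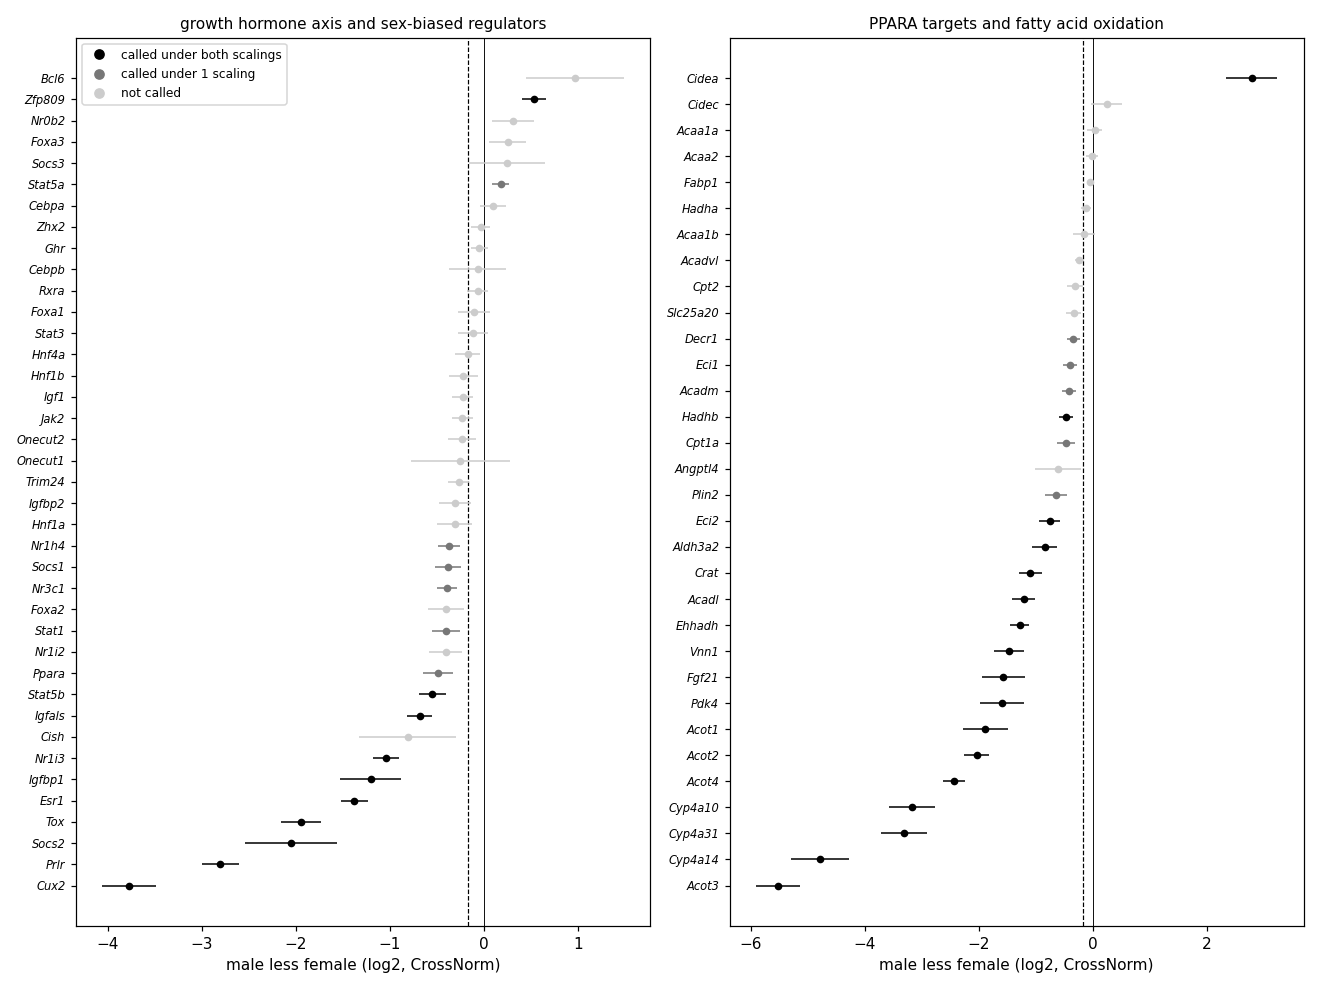
Log2 difference, male less female, with its standard error for genes of 2 lists, the growth hormone axis and sex-biased regulators (39 genes, left) and the PPARA targets and fatty acid oxidation genes (32 of 34 genes, right). Black points were called under both scalings, and the dashed line is the median of all autosomal genes (-0.17); Cux2 and Acot3 lie farthest to the female side.

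Targets of PPARA, the receptor that turns on fatty acid oxidation in fasting, were called mostly on the female side. Of 34 genes tested, 17 were higher in females and 1 in males (background 6.19% and 2.48%), with a median of -0.54 (-0.44 after quantile normalization). Acot3, an acyl-CoA thioesterase of peroxisomes, ranged from 11.52 to 13.29 in females and from 6.06 to 8.69 in males, with a difference of -5.52 (SE 0.39, adjusted p = 4.04e-15). Cyp4a14, a fatty acid hydroxylase, ranged from 8.33 to 10.65 in females and from 3.94 to 5.44 in males, with a difference of -4.78 (SE 0.51, adjusted p = 8.63e-10). Both genes separated the sexes without overlap, and 8.69% of all autosomal genes had every female above every male. The Cyp4a14 probe was well above background in 2 of 6 males, and its difference ran from -6.99 to -3.56 across the alternative analyses. The related Cyp4a31 and Cyp4a10 differed by -3.31 and -3.17, and Acot1 by -1.88. Pdk4, which restrains glucose oxidation, differed by -1.60 and the hormone gene Fgf21 by -1.57, whereas the pantetheinase Vnn1 differed by -1.46 and the peroxisomal enzyme Ehhadh by -1.28. Cidea, a lipid droplet protein, was the 1 male-higher member (2.79, SE 0.45, adjusted p = 8.48e-06), with a probe well above background in 2 of 6 females.

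In fatty acid and triglyceride synthesis, 5 of 24 genes tested were higher in females and 1 in males (background 6.19% and 2.48%). The enzymes of polyunsaturated fatty acid synthesis made up 4 of the 5, with differences of -0.80 for Elovl5, -0.70 for Elovl2, -0.69 for Fads2 and -0.56 for Fads1. Pnpla3, a lipase of lipid droplets, differed by -2.09 (SE 0.64, adjusted p = 0.014) and was called in 24 of 26 alternatives. The desaturase gene Scd1 was not called (-0.31, adjusted p = 0.308), and Mogat1 was higher in males by 0.58 (adjusted p = 0.0343), a call made in 16 of 26 alternatives. In sterol biosynthesis none of 23 genes was called under both scalings, nor was any of 18 clock genes.

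In bile acid synthesis and transport, 3 of 20 genes tested were higher in males and 4 in females (background 2.48% and 6.19%). Cyp8b1, which directs synthesis to cholic acid, lay at 8.93, 9.74 and 10.51 in males and at 7.604, 8.18 and 9.29 in females, with a difference of 1.43 (SE 0.30, adjusted p = 0.000487). The ranges of the sexes overlapped. Cyp7a1, the rate-limiting enzyme of the classical pathway, was spread from 7.42 to 10.27 in males and from 7.21 to 10.55 in females and was not called (-0.27, adjusted p = 0.72). The uptake transporter gene Slc10a2 was higher in males by 0.995. The export genes Abcg5, Abcg8 and Slc51b were higher in females, with differences of -0.99, -0.73 and -1.001, the last with a probe well above background in 2 of 6 males.

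Steroid hormone enzymes were divided, with 5 of 19 tested higher in males and 2 in females (background 2.48% and 6.19%). Srd5a1, the steroid 5-alpha reductase, was higher in males by 1.59 (SE 0.13, adjusted p = 7.95e-13), and Hsd3b3 and Hsd3b6 by 1.12 and 1.03. On the female side, Hsd17b6 differed by -1.98 (SE 0.29) and Hsd11b1, which activates glucocorticoids, by -0.60. Sult1e1, the estrogen sulfotransferase, was called after CrossNorm and not after quantile normalization (-1.28, adjusted p = 0.0254 after CrossNorm).

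Although the receptor was deleted, 8 of 20 tested PXR target genes were higher in females and 2 in males (background 6.19% and 2.48%). Besides Cyp2b10, these were Slco1a4 (-3.43), the efflux pump gene Abcb1a (-1.74), Cyp3a11 (-1.28), the P450 reductase gene Por (-1.04), Cyp3a59 (-0.86), the efflux pump gene Abcc3 (-0.61) and Cyp2c29 (-0.60). Cyp3a11 lay at 13.85, 14.57 and 15.10 in males and at 15.63, 15.69 and 16.07 in females (SE 0.17, adjusted p = 3.08e-07). The sexes did not overlap, as for 8.69% of all autosomal genes with females above. Cyp2c55, another target, overlapped between the sexes, with 10.06 to 10.70 in males and 9.85 to 10.77 in females (0.13, adjusted p = 0.715).

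Among immune genes, the interferon-stimulated genes and the markers of T and NK cells had members on the female side. Of 28 interferon-stimulated genes tested, 10 were higher in females (background 6.19%) and none in males. After CrossNorm, whatever the call under the other scaling, 18 were higher in females (background 23%). Igtp and Gbp3, interferon-induced GTPases, each differed by -1.26 (SE 0.19), Usp18 by -1.21 and Ifit1 by -0.84. Of 17 T and NK cell markers, 10 were higher in females (background 6.19%), among them Gzma (-1.11, SE 0.22, adjusted p = 0.000209), Nkg7 (-0.82), Il2rb (-0.81), Cd3d (-0.77), Klrd1 (-0.77) and Lck (-0.73). The 6 females were above the 6 males for Gzma, Nkg7, Klrd1, Cd3d and Lck, while Il2rb overlapped (8.69% of all autosomal genes had every female above every male). In whole liver, fewer cells of a type and less RNA per cell cannot be told apart.

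Markers of other liver cells are given beside these results, and their part in them was not tested. The summed signal of the T and NK markers overlapped between the sexes, with 12289 to 18905 in males and 13805 to 20791 in females, and Cd8a, Ncr1, Eomes and Cd27 were too dim to be tested. Of 15 stellate cell and fibroblast markers, 4 were higher in females (background 6.19%), among them Hgf (-0.69). After CrossNorm, whatever the call under the other scaling, 8 were (background 23%). Their median difference was -0.56 (-0.35 after quantile normalization). Their summed signal was 35907 to 53443 in males and 58989 to 73494 in females, without overlap. Such a sum weighs the brightest members most and is not given after quantile normalization. Of 17 sinusoidal endothelial markers and 16 hepatocyte markers, none was called under both scalings. Of 23 macrophage markers, 1 was higher in males (background 2.48%). This was Mpeg1 (0.52, adjusted p = 0.0361), called in 17 of 26 alternatives, whose second probe gave -0.08 (adjusted p = 0.758). Their summed signal overlapped, from 25550 to 106581 in males and from 32375 to 57751 in females.

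A list of acute phase genes and complement components that left out Cfd, C6, C8a and C8b had 1 of 32 tested higher in males and 3 in females, near the shares of all genes (2.48% and 6.19%). C9, which completes the terminal complement complex with the male-higher C6, C8a and C8b, was higher in males by 1.54 (SE 0.18, adjusted p = 6.53e-09). Mbl2, a lectin of the complement system, and Lbp, which binds bacterial lipopolysaccharide, were higher in females, with differences of -0.98 and -0.79. Saa1, a major acute phase protein, ranged from 13.21 to 16.59 in males (median 14.14) and from 11.29 to 13.43 in females (median 13.06). Its difference of 1.67 (SE 0.65) had an adjusted p of 0.0507 after CrossNorm and was called after quantile normalization, and in 8 of 26 alternatives.

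The sex differences of these mice were correlated with those of the other settings. The 4 comparisons shared no mice. Across the 20958 genes, which are not independent replicates, the Pearson r with the sex difference of untreated *Pxr*+/+ mice was 0.843, with that of untreated *Pxr*-/- mice 0.872 and with that of antibiotic-treated *Pxr*+/+ mice 0.891. Of the 520 male-higher genes, 316 were also called among the 447 of untreated *Pxr*+/+ mice (60.8% and 70.7% of the lists), 352 among the 505 of untreated *Pxr*-/- mice (67.7% and 69.7%) and 400 among the 717 of antibiotic-treated *Pxr*+/+ mice (76.9% and 55.8%). Of the 1297 female-higher genes, 747 were shared with the 1745 of untreated *Pxr*+/+ mice (57.6% and 42.8%), 723 with 1294 (55.7% and 55.9%) and 867 with 1637 (66.8% and 52.96%). All 4 settings called 279 male-higher and 554 female-higher genes. A further 32 male-higher and 90 female-higher genes were called in no other setting by either scaling, and none of these differed from the mean of the other settings when that difference was tested.

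The difference between settings was tested gene by gene as an interaction. Against untreated *Pxr*+/+ mice, 11 of 20958 genes had a different sex difference (0.0525%), against untreated *Pxr*-/- mice 1 (0.00477%), against antibiotic-treated *Pxr*+/+ mice 10 (0.0477%), and against the mean of the 3 settings 3 (0.0143%). After quantile normalization the counts were 22 (0.105%), 1, 10 and 6 (0.0286%). At an unadjusted p under 0.05 after CrossNorm, the counts were 1454, 1016, 1820 and 1464 of 20958 genes. Without any difference between settings, a share of 0.05 of all genes would be expected under that threshold. Leaving out single mice moved the first count to 6 without male replicate 1, to 7 without female replicate 2, 3, 4 or 5 and to 23 without female replicate 6, and moved the second to 2 without female replicate 6.

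Moxd1 was called in all 4 tests. The test against the mean of the other settings had an adjusted p of 7.99e-06 and was called in 24 of 24 alternative analyses that gave a value. Because the probe was well above background in at most 1 of the 6 females of any setting, the fitted size of this interaction depends on how background was treated and ran from 3.58 to 6.48 across them. The 6 males lay at 7.77, 12.24, 8.50, 8.88, 10.59 and 10.31, against 4.55 to 6.97 in untreated *Pxr*-/- males, 4.61 to 8.43 in antibiotic-treated *Pxr*+/+ males and 4.29 to 4.87 in untreated *Pxr*+/+ males. They overlapped with antibiotic-treated *Pxr*+/+ males and were above the males of the other groups. Moxd1 was chosen by the tests on these same values, so these ranges only describe them. Every female of the 4 settings lay between 4.01 and 4.88. The probe lies at chr10:24022208-24022266 (mm9).

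Cyp39a1, which hydroxylates 24-hydroxycholesterol on the way to bile acids, was called in 3 of the 4 tests. Its sex difference was -2.44, against -1.07 in untreated *Pxr*+/+, -1.19 in untreated *Pxr*-/- and -1.26 in antibiotic-treated *Pxr*+/+ mice, and it differed from their mean by -1.27 (SE 0.20, adjusted p = 0.00142; called in 25 of 25 alternatives). The 6 males lay between 9.55 and 9.99, against 10.49 to 11.54 in the males of the other settings. The 6 females lay between 11.67 and 12.36. Cyp39a1 was chosen by the tests on these same values, so these ranges only describe them. Against antibiotic-treated *Pxr*+/+ mice alone, the adjusted p was 0.0386, and the call was made in 11 of 26 alternatives, quantile normalization not among them. The probe lies at chr17:43887735-43887794 (mm9).

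Slco1a4, a transporter that takes up bile acids and drugs and is a PXR target, had a larger sex difference than in either *Pxr*+/+ setting. Its sex difference was -3.43 and -3.81 in antibiotic-treated and untreated *Pxr*-/- mice, against -1.27 and -1.39 in the *Pxr*+/+ mice. The interaction was -2.15 (SE 0.29, adjusted p = 2.43e-05) against antibiotic-treated *Pxr*+/+ mice and -2.04 (SE 0.29, adjusted p = 0.000181) against untreated ones. Males lay between 7.53 and 8.46, against 10.10 to 10.69 in antibiotic-treated *Pxr*+/+ males, and females between 11.08 and 11.75. Against the mean of the 3 settings the call (-1.27, adjusted p = 0.0337) was made in 15 of 25 alternatives. Meig1, known for its role in spermatogenesis, also had a larger sex difference than in antibiotic-treated *Pxr*+/+ mice (adjusted p = 0.000777). Its males lay between 6.09 and 7.64, against 4.84 to 5.31 in antibiotic-treated *Pxr*+/+ males, and its probe was well above background in 1 of 6 females here. Sult2a5 was called in the same test (adjusted p = 0.0224, in 18 of 25 alternatives). It was not well above background in any male, so the size of its difference depends on how background was treated. Its females lay between 9.08 and 10.74, against 6.63 to 8.87 in antibiotic-treated *Pxr*+/+ females. Neither Meig1 nor Sult2a5 was called against untreated *Pxr*-/- mice. Against the mean of the 3 settings they were not called either (adjusted p = 0.572 for Meig1 and 0.589 for Sult2a5).

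**Figure D5:**
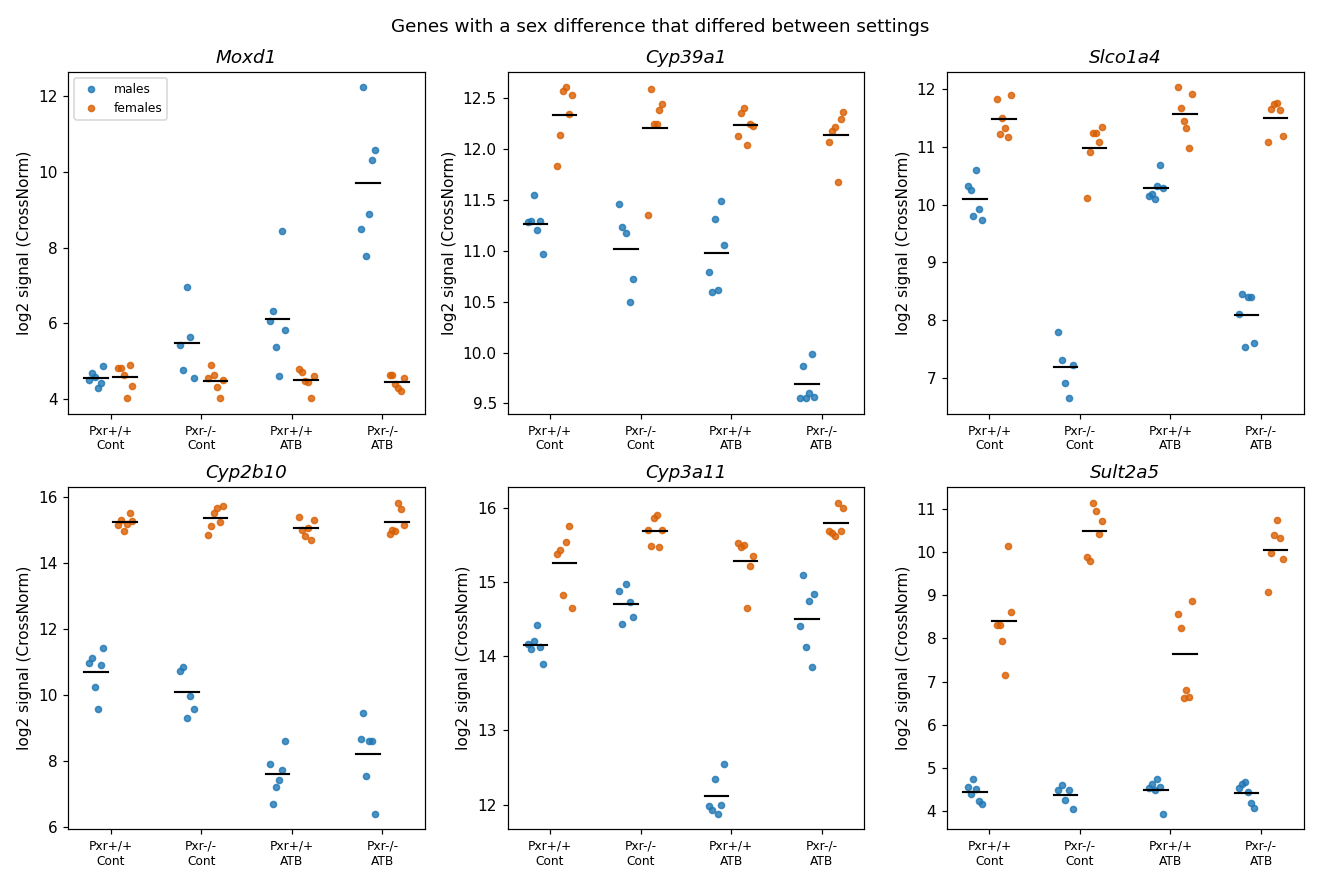
Log2 signal of every mouse of the 8 groups for genes whose sex difference differed from another setting, with males and females of each genotype and treatment side by side and a bar at each group mean. Moxd1 is high in antibiotic-treated *Pxr*-/- males (7.77 to 12.24), and Cyp39a1 is low in them (9.55 to 9.99).

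For 4 Cyp3a genes the sex difference was smaller than in antibiotic-treated *Pxr*+/+ mice. Cyp3a11 differed between the sexes by -1.28 in antibiotic-treated *Pxr*-/- mice and by -3.17 in antibiotic-treated *Pxr*+/+ mice, an interaction of 1.89 (SE 0.25, adjusted p = 1.62e-05). Males lay between 13.85 and 15.10, above the 11.88 to 12.55 of antibiotic-treated *Pxr*+/+ males. The interaction was 1.96 for Cyp3a16 (adjusted p = 5.18e-06), 1.78 for Cyp3a41a (adjusted p = 1.67e-07) and 1.16 for Cyp3a59 (adjusted p = 0.00503), and all 4 genes were called in 26 of 26 alternatives. Against untreated mice of either genotype none of the 4 was called. The probes of these genes share no run longer than 6 bases.

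Cyp2b9 and Cyp2b10 instead had a larger sex difference than in untreated *Pxr*+/+ mice. The interaction was -2.56 for Cyp2b9 (SE 0.43, adjusted p = 0.00523) and -2.50 for Cyp2b10 (SE 0.47, adjusted p = 0.0172). In antibiotic-treated *Pxr*+/+ mice the sex difference was -8.49 and -7.44, close to the -8.61 and -7.01 here, and neither gene was called against that setting. Males lay between 6.41 and 9.46 for Cyp2b10, against 9.59 to 11.42 in untreated *Pxr*+/+ males. Impa2, an inositol monophosphatase, was also called (-1.14, adjusted p = 0.0332), in 18 of 26 alternatives.

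The other named genes called against untreated *Pxr*+/+ mice differed in the direction of males. Fut7, a fucosyltransferase of leukocytes, differed by 0.17 between the sexes here and by -0.69 in untreated *Pxr*+/+ mice (adjusted p of the interaction 0.00683). The leukocyte genes Mpeg1 (0.52 against -0.79) and Plek (0.16 against -1.003) were called with adjusted p = 0.043 and 0.0465, in 13 and 11 of 26 alternatives. Dct, dopachrome tautomerase, was called with an interaction of 1.85 (adjusted p = 0.00959). A second probe gave an interaction of 0.47 for Dct and 0.31 for Mpeg1. Rdh16f2, a retinol dehydrogenase, was called against antibiotic-treated *Pxr*+/+ mice (-0.73, adjusted p = 0.049) in 7 of 26 alternatives, and not after quantile normalization.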

How the data were processed

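Liver RNA was labelled with Cy3 and hybridized by the authors to 1-color Agilent arrays, read with Feature Extraction 10.10.1.1. Their deposited scanner files give the intensity of each spot (median signal), neither background-subtracted nor scaled. Log2 values that the authors had filtered, corrected for wash batch and normalized with CrossNorm (33383 probes) were deposited too and served as an alternative only.

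Groups came from the sample labels, and members and gene lists were chosen with earlier results of these data known. Control spots and 422 non-uniform spots were left out. The log2 median signal was corrected for wash batch with group means kept. CrossNorm stacked 1 random array of each group per column, quantile normalized the columns and averaged 300 such draws, since the authors' stacking and filter are not stated. Of 56605 probes, 32974 were tested, those that 5 or more arrays of a group showed well above background. The model (limma 3.58.1, R 4.3.3; files read with the data.table package, version 1.17.8, and figures drawn with matplotlib 3.10.9) held 8 groups and wash batch over all 47 arrays. The batch effect had already been removed before the scaling. Wash batch was kept as a term, so the fit still counted it when the spread between mice was estimated. Adjustment was over all probes, and a gene was its brightest probe. The procedure was tested on simulated data. Symbols and probe coordinates (mm9) are those of the array, with 1535 probes renamed through RefSeq. Where a probe was not well above background on any array of a sex, the fold is a lower bound against the lowest signal well above background on each of those arrays.

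Named genes were the 12 with the largest non-overlapping difference in each direction, all genes called in an interaction where there were 10 or fewer and otherwise the 5 largest in each direction, the sex and genotype checks, and list members with the largest differences or a known role. A few named genes are not reported here. Alternatives were quantile normalization, the 75th percentile, normexp, the authors' values, no scaling, spike-in scaling, 2 other filters, no wash batch, slide as a block, replicate number as a block, only the groups compared, any probe, adjustment over autosomal probes, and each mouse left out in turn. The number of arrays limits the precision, and p-values measure the spread between mice that shared cages.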

Additional observations from a re-analysis of the deposited data

Results flagged for a closer look

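In 12 of 264 groups of 6 values examined, 1 mouse stood apart from the other 5 (chance flags about 1 in 20 groups). On the male side these were the lowest values of Cfd (8.75) and Hamp2 (11.41) and the highest of Sult3a1 (6.96), Stat5b (12.22) and Fgf21 (7.93). On the female side they were the highest values of Nat8f5 (6.24), Abcg8 (13.36) and Hsd11b1 (16.16) and the lowest of Sult2a4 (13.67), Cyp4a31 (13.51), Ehhadh (12.28) and Elovl5 (14.58). Female replicate 1 was the mouse that stood apart for Sult2a4, Cyp4a31, Ehhadh and Elovl5.

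The sex difference of the 17 genes named here differed from that of another setting in a test of the difference itself (limma, log2, CrossNorm). Of the 11 genes called against untreated *Pxr*+/+ mice, 10 are named, the 5 largest in each direction. Moxd1 and Sult2a5 were not well above background in 1 sex, so their values depend on how background was treated. Against untreated *Pxr*+/+ mice, the values were 5.30 for Moxd1, 1.85 for Dct, 1.30 for Mpeg1, 1.17 for Plek, 0.86 for Fut7, -2.56 for Cyp2b9, -2.50 for Cyp2b10, -2.04 for Slco1a4, -1.37 for Cyp39a1 and -1.14 for Impa2. Against untreated *Pxr*-/- mice, the value was 4.29 for Moxd1. Against antibiotic-treated *Pxr*+/+ mice, they were 3.67 for Moxd1, 1.96 for Cyp3a16, 1.89 for Cyp3a11, 1.78 for Cyp3a41a, 1.58 for Meig1, 1.16 for Cyp3a59, -2.49 for Sult2a5, -2.15 for Slco1a4, -1.19 for Cyp39a1 and -0.73 for Rdh16f2. Against the mean of the other settings, they were 4.42 for Moxd1, -1.27 for Cyp39a1 and -1.27 for Slco1a4.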

How the results depend on the processing

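The number of genes higher in males (521) and in females (4830) depended most on the scaling. It was 1420 and 1298 with quantile normalization, 1880 and 1297 with the 75th percentile, 1100 and 1107 with normexp, 797 and 2650 with the authors' processed values, and 532 and 1724 with spike-in scaling, which was chosen after seeing the data. With 1 mouse left out in turn it ranged from 467 to 551 and from 3417 to 5870. Without scaling it was 508 and 4547, within 1.5 times the main counts, as under the other alternatives. The cause was not tested.

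The interaction counts (11 against untreated *Pxr*+/+, 1 against untreated *Pxr*-/-, 10 against antibiotic-treated *Pxr*+/+ and 3 against the mean) moved as follows. The first was 22 with quantile normalization, 17 with the 75th percentile, 31 with normexp, 27 with the authors' values, 6 with probes well above background on all 47 arrays, 31 with only the groups compared and 37 with spike-in scaling, and ranged from 6 to 23 with 1 mouse left out. The second was 0 with the 75th percentile, 0 with the strict filter, which removes Moxd1, and 0 with only the groups compared, and ranged from 1 to 2. The third was 5 with the 75th percentile and 6 with the strict filter, and ranged from 7 to 11. The fourth was 6 with quantile normalization and 5 with the authors' values, and ranged from 2 to 4; it has no value with only the groups compared.

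Some sex differences that were not called changed sign. Kdm5d was 0.17 with quantile normalization, 0.28 with the 75th percentile, 0.12 with normexp, 0.061 with the authors' values and 0.070 with spike-in scaling, and Ghr was 0.13, 0.20, 0.12, 0.064 and 0.038 under the same settings. With the 75th percentile, Igf1 was 0.020 and Hnf4a 0.057. With 1 mouse left out, the ranges were -0.070 to 0.045 for Kdm5d, -0.0096 to 0.28 for Plek, -0.089 to 0.012 for Ghr and -0.67 to 0.051 for Cyp7a1.

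Replicate numbers did not pair the samples, since the deviations of same-numbered males and females correlated between -0.18 and 0.17. With the replicate number as a block the counts were 518 and 4766 for the sexes and 8, 1, 10 and 3 for the interactions. Signal over background limits genes that were dim in 1 sex, whose differences are bounds.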
